A study of Mus musculus with 16 samples.

Results

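The non-additive part of the liver response to loss of *Gclc* and *Nrf2* together was read from 16 mouse liver transcriptomes in a 2 by 2 design. For each gene the effect of *Gclc* deletion where *Nrf2* was intact (WT against Gclc L-KO) was subtracted from its effect where *Nrf2* was targeted (Nrf2 L-KO against L-DKO). A difference of 0, called the interaction below, means that both deletions add up on the log2 scale. A gene was tested where its mean value over the 16 libraries was at least 3, and all genes past the test were kept, with positive and negative values apart. The table lists 56832 genes, of which 15128 were tested and 104 were called, 34 positive and 70 negative.

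GCLC is the catalytic subunit of glutamate-cysteine ligase, the rate-limiting enzyme of glutathione synthesis. NRF2, encoded by *Nfe2l2*, is a transcription factor that KEAP1 holds at low levels until oxidants or electrophiles modify KEAP1, after which NRF2 binds antioxidant response elements with small MAF proteins. Its known targets in liver include genes for glutathione synthesis and conjugation, quinone reduction, thioredoxin recycling, NADPH supply, iron storage and export of conjugates, and NRF2 activity in mouse liver is also known to lower lipid synthesis genes.

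The groups were WT (Gclc wt/wt), Gclc L-KO (Gclc f/f), Nrf2 L-KO (Nrf2 f/f) and L-DKO (f/f at both genes), with 4 mice each. All 16 mice, controls included, received AAV-TBG-Cre by tail vein at 2.5e11, given as plaque-forming units in the series text and as genome copies in the methods, and livers were taken 3 weeks later. The TBG promoter limits Cre to hepatocytes, so other liver cells keep both genes, and in whole-liver RNA fewer cells of a type and less RNA per cell cannot be told apart. The methods give adult C57BL/6 mice of both sexes, and the labels give no sex or age. Each library is 1 mouse, so the p-values measure the spread between mice. The main fit has no term for sex, so within a genotype this spread includes any difference between the sexes.

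The targeted gene comes first. *Gclc* stood at 13.00, 12.96, 13.40 and 13.52 in WT, 13.01, 12.81, 13.84 and 14.06 in Gclc L-KO, 12.92, 12.67, 12.59 and 13.00 in Nrf2 L-KO and 11.45, 11.44, 11.33 and 11.66 in L-DKO, listed here and below in the order of replicates 1 to 4 as rlog values, a log2 scale on which counts were adjusted for library size and weak genes were pulled towards their mean. The 4 L-DKO libraries were the lowest, whereas the libraries labelled Gclc L-KO overlapped WT. *Nfe2l2* lay at 11.54 to 11.62 in WT, 11.57 to 12.05 in Gclc L-KO, 11.89 to 12.54 in Nrf2 L-KO and 12.29 to 13.24 in L-DKO, so it was not lower in the libraries labelled as *Nrf2* targeted. Values per gene do not show the loss of a floxed exon, and the groups are used as labelled.

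Library medians over the tested genes were 8.33 to 8.38. *Xist* was at 14.10 to 14.65 in replicates 1 and 2 of each genotype and at 7.95 to 8.91 in replicates 3 and 4. *Ddx3y* ran the other way, at 5.07 to 5.37 in replicates 1 and 2 and at 10.35 to 10.80 in replicates 3 and 4. By these genes replicates 1 and 2 of each genotype read as female and replicates 3 and 4 as male. The main fit called 34 positive and 70 negative genes without a term for this split. With *Xist* as a covariate 80 positive and 138 negative genes were called. The summed hepatocyte markers (6 genes, including *Alb*; log2 of the sum) spanned 21.44 to 21.78 in WT, 19.98 to 21.10 in Gclc L-KO, 21.55 to 21.82 in Nrf2 L-KO and 21.03 to 21.81 in L-DKO. The sum of 8 Kupffer cell and macrophage markers spanned 12.82 to 13.27, 13.62 to 14.10, 12.99 to 14.16 and 13.35 to 13.95 in the same order, with no marker at 0 in all libraries. Exocrine pancreas genes ran across genotypes: the median of 12 such genes, chosen after their values were seen, was 6.90 to 7.14 in 5 libraries and reached 14.16 in Nrf2 L-KO replicate 3 and 13.98 in Gclc L-KO replicate 3. The interactions of these 12 genes were -5.14 to -6.00, with standard errors of 1.85 to 2.26, and none was called. The part of pancreas genes and of hepatocyte markers in the results below was not tested. For macrophage markers the calls were counted again with their mean as a covariate, which does not cover the pancreas genes.

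Fewer genes were called for the interaction than for *Gclc* deletion alone. The interaction draws on every group and has the larger standard error, so these counts do not show that non-additive change is rare. In the limma fit with Benjamini-Hochberg adjustment 34 genes had a positive interaction, which is 0.225% of the genes tested, and 70 had a negative one, 0.463%. The median interaction over all tested genes was -0.00023. The positive values ranged from 0.38 to 2.63 on the log2 scale and the negative ones from -0.37 to -6.07, with 14 and 41 genes at a size of at least 1. At an unadjusted p under 0.05 there were 1127 positive and 1112 negative genes. With the mean of the macrophage markers as a covariate, an alternative chosen after the data were seen, 24 negative genes and 1 positive gene kept their call, and 46 and 33 lost it.

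Most negative genes rose after *Gclc* deletion and did so less, or not at all, where *Nrf2* was targeted. Of the 70, 68 rose from WT to Gclc L-KO (10.6% of all tested genes did), 12 rose from Nrf2 L-KO to L-DKO (2.65% of all) and 4 fell there (2.61% of all). Positive genes were the mirror image. Of the 34, 28 fell from WT to Gclc L-KO (12.4% of all tested genes), and 8 rose and 3 fell from Nrf2 L-KO to L-DKO. These effects use the same libraries as the interaction and describe it rather than support it. *Nrf2* targeting alone changed little, since 0.126% of tested genes fell from WT to Nrf2 L-KO and 0.0132% rose, with 6 and 1 of the 70 negative genes and 0 of the 34 positive genes among them.

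**Figure D1:**
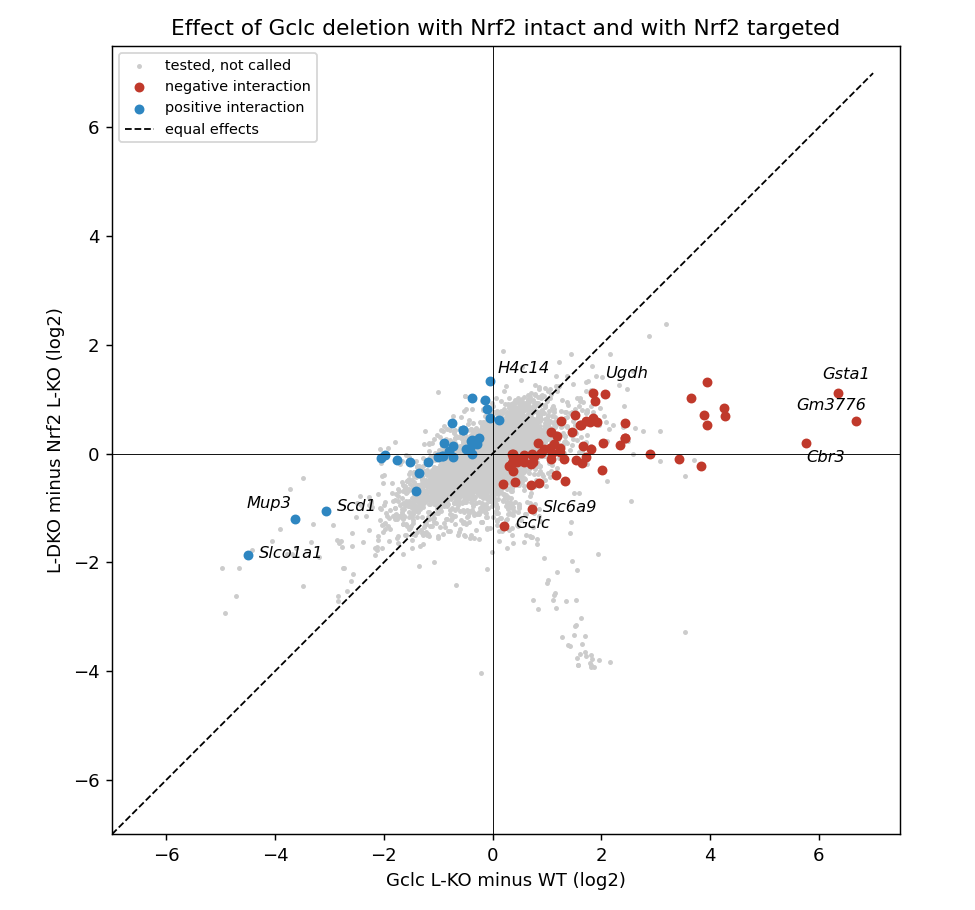
Each point is 1 of the 15128 tested genes, with the log2 effect of *Gclc* deletion where *Nrf2* was intact on the horizontal axis and where it was targeted on the vertical axis, and the dashed line marks equal effects. Most of the 70 negative genes (red) lie right of 0 and near the horizontal line, most of the 34 positive genes (blue) lie left of 0 and above the dashed line, and the grey points at the lower right, under -2 on the vertical axis, include the exocrine pancreas genes.

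The shares and counts that follow describe the called genes and are no further support. The genes were called for a difference between both *Gclc* effects, so a large absent share follows in part from the call. In 66 of the 70 negative genes the *Gclc* effect was smaller without *Nrf2*, and a median of 94.2% of it was absent, with a range of 39.7 to 185%. In 27 of the 34 positive genes it was smaller, with a median of 98.8% absent and a range of 50.3 to 180%. A share over 100% means that the effect changed sign. All 4 Gclc L-KO libraries lay above all 12 others in 64 of the negative genes (3.11% of all tested genes) and below them in 25 of the positive genes (2.52% of all). The other genes, 4 negative and 7 positive, had a larger *Gclc* effect without *Nrf2*. All 4 L-DKO libraries lay below the 12 others in 4 negative genes (0.542% of all) and above them in 6 positive genes (0.687% of all).

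Promoter windows of the called genes were searched for the antioxidant response element core, written TGACNNNGC or TGAGNNNGC, on both strands, where N is any base. The forms differ at a single base. The windows are RefSeq entries on the GRCm38.p6 build, 250 bases before to 50 after each start, whereas the reads were aligned to GRCm39. A match was present in 29 of 75 windows of negative genes (38.7%) and in 12 of 33 windows of positive genes (36.4%), against 30.5% of the windows of all tested genes and 27.8% of all windows. Among the 29 negative genes called in every fit that left out 1 library, 24.1% of windows held one. Windows were found for 55 of the 70 negative and 28 of the 34 positive genes. Matches were found in 22 of the 55 negative genes with a window (40.0%), against 35.7% of such positive genes and 34.9% of such tested genes. The share was 27.3% in the 12 largest negative calls and also in the 29 called in every such fit. The 6 windows printed were picked after the search from genes described here, 5 with matches and that of *Cbr3* without one. *Cbr3* had the largest negative interaction among called genes with a full name. Other called genes such as *Abcc4*, *Abcc2*, *Txnrd1*, *Slc6a9* and *Ugdh* also hold matches. Capitals mark each match, and every sequence runs 5′ to 3′ on the gene's strand.
*Srxn1* (chr2:152105274-152105573, plus strand): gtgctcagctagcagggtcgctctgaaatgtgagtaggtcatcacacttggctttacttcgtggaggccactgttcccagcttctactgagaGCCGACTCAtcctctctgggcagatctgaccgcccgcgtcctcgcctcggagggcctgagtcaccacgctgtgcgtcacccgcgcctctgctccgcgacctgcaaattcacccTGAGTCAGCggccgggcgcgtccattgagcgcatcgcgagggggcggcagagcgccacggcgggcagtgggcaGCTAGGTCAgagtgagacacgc
*Gstp2* (chr19:4042172-4042471, minus strand): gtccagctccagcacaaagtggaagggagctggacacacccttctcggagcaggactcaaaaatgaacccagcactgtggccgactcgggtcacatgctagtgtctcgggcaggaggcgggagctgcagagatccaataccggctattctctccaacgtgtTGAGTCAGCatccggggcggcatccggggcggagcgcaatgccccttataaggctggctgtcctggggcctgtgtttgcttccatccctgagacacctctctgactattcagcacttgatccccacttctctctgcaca
*Gclm* (chr3:122245307-122245606, plus strand): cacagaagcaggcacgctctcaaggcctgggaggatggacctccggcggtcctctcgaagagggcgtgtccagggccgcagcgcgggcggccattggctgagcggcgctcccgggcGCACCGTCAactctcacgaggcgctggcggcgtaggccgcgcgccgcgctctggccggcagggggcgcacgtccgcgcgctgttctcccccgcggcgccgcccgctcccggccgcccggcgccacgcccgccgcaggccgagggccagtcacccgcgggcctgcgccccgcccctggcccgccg
*Pir* (chrX:164269181-164269480, plus strand): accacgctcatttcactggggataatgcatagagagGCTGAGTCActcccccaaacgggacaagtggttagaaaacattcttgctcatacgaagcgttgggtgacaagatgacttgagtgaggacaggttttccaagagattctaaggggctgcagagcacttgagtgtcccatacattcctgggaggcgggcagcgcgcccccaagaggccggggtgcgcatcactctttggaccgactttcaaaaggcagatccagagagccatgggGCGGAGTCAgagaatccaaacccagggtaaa
*Ppfibp2* (chr7:107594801-107595100, plus strand): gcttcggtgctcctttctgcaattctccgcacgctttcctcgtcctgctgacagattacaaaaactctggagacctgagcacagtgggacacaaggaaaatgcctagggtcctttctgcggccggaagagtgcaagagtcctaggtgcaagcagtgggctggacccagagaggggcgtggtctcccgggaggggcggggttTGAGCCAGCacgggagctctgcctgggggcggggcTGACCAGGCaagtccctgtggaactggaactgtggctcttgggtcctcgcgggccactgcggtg
*Cbr3* (chr16:93682969-93683268, plus strand): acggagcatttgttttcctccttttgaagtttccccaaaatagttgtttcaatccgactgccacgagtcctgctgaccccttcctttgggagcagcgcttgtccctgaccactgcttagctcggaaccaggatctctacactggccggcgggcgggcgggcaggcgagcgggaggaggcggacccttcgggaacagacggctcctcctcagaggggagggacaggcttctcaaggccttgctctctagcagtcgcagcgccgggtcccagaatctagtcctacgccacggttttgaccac
The *Srxn1* window holds 3 matches, that of *Pir* and the one shown of *Ppfibp2* hold 2 each, and *Gstp2* and *Gclm* hold 1 each. *Ppfibp2* has 4 windows in the table, and the other 3 hold no match. Matches in a window are a description of its letters.

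Glutathione transferases, which join glutathione to electrophiles, held the most negative calls of any list. Of 23 tested members 8 had a negative interaction and none a positive one, and the list median was -0.39. Over all tested genes 0.463% were called negative and 0.225% positive, the background for this count and for those of the lists below. *Gsta1*, an alpha-class transferase, stood at 4.80, 5.15, 5.29 and 5.78 in WT, 10.66, 11.04, 11.80 and 12.96 in Gclc L-KO, 4.56, 4.46, 4.78 and 4.64 in Nrf2 L-KO and 6.02, 5.40, 5.64 and 5.89 in L-DKO. The Gclc L-KO libraries stood far above the rest, and L-DKO lay above all Nrf2 L-KO libraries but overlapped WT. Its interaction was -5.23 (standard error 0.52, adjusted p = 9.48e-05), where additive effects would have put L-DKO at 10.97 and its mean was 5.74. *Gstp2*, a pi-class transferase, stood at 5.30, 5.31, 6.03 and 6.30 in WT, 8.10, 9.72, 10.37 and 10.55 in Gclc L-KO, 5.43, 5.09, 5.90 and 5.52 in Nrf2 L-KO and 5.66, 5.48, 6.31 and 6.58 in L-DKO. Gclc L-KO replicate 1 was the lowest of its group, still above all other libraries. The interaction of *Gstp2* was -3.43 (standard error 0.62, adjusted p = 0.0235), and it lost the call without WT 1, Gclc L-KO 3 or Nrf2 L-KO 3, with adjusted p up to 0.0632.

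Mu-class transferases had the same shape at higher levels. *Gstm3* stood at 11.59, 12.08, 12.45 and 12.85 in WT, 15.25, 15.94, 16.16 and 16.24 in Gclc L-KO, 10.91, 10.87, 11.20 and 11.57 in Nrf2 L-KO and 11.998, 11.45, 12.58 and 12.60 in L-DKO. Gclc L-KO was above the other 12 libraries, and Nrf2 L-KO was the lowest group except that its replicate 4 at 11.57 passed L-DKO replicate 2 at 11.45. *Gstm3* had an interaction of -2.63 (standard error 0.43, adjusted p = 0.0112). *Gstm4* stood at 10.84, 11.13, 11.26 and 11.39 in WT, 13.18, 13.70, 13.82 and 13.65 in Gclc L-KO, 10.39, 10.55, 10.38 and 10.40 in Nrf2 L-KO and 10.71, 10.93, 10.56 and 10.66 in L-DKO. Gclc L-KO was the highest and Nrf2 L-KO the lowest group, without overlap. The interaction of *Gstm4* was -2.15 (standard error 0.19, adjusted p = 3.48e-05), and that of *Gsta2* was -2.63 (standard error 0.37, adjusted p = 0.00344). *Gstm1*, chosen after its values were seen, was the most abundant of them on the rlog scale, which does not correct for length, and stood at 15.67, 15.90, 15.77 and 16.12 in WT, 18.19, 18.37, 18.32 and 18.29 in Gclc L-KO, 14.46, 14.43, 14.37 and 14.41 in Nrf2 L-KO and 15.01, 14.85, 14.97 and 15.10 in L-DKO. The groups did not overlap, in the order Gclc L-KO, WT, L-DKO and Nrf2 L-KO. The Nrf2 L-KO mean was already below WT, with a log2 difference of -1.45, and its interaction was -1.86 (standard error 0.16, adjusted p = 3.48e-05). *Gsta4* and *Gstm2*, also chosen after their values were seen, had interactions of -0.82 (adjusted p = 0.00129) and -1.19 (adjusted p = 0.0434). The predicted gene *Gm3776* had the largest negative value among called genes, at -6.07 (adjusted p = 3.48e-05). Mu-class genes and the alpha-class group of *Gsta1*, *Gsta2* and *Gm3776* have near-identical copies, so reads may be split between members.

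The list of quinone and carbonyl reduction held 6 negative genes of 15 tested, with a list median of -0.71 and no positive call. Such reductases make reactive groups less electrophilic, and the called member *Ugdh* is not one of them. *Cbr3*, a carbonyl reductase, stood at 5.13, 5.11, 5.47 and 4.96 in WT, 10.27, 11.21, 11.19 and 11.06 in Gclc L-KO, 5.12, 4.80, 5.02 and 5.17 in Nrf2 L-KO and 5.78, 5.01, 5.23 and 4.88 in L-DKO. The 4 Gclc L-KO libraries were above 10 and the 12 others under 6. Its interaction was -5.56 (standard error 0.31, adjusted p = 2.69e-07), the smallest adjusted p of all genes tested. *Nqo1*, a quinone reductase and the standard NRF2 target gene, stood at 8.81, 9.16, 8.31 and 8.05 in WT, 11.82, 12.61, 12.64 and 12.79 in Gclc L-KO, 8.28, 8.35, 7.53 and 7.35 in Nrf2 L-KO and 8.97, 8.98, 8.21 and 8.18 in L-DKO. In WT, Nrf2 L-KO and L-DKO replicates 1 and 2 were above replicates 3 and 4, and no library outside Gclc L-KO reached 10. The interaction of *Nqo1* was -3.18 (standard error 0.43, adjusted p = 0.00256). *Cbr1* stood at 11.34, 11.22, 10.51 and 10.59 in WT, 13.32, 13.53, 13.18 and 12.96 in Gclc L-KO, 10.999, 11.08, 10.71 and 11.11 in Nrf2 L-KO and 11.06, 11.09, 11.07 and 11.30 in L-DKO. Gclc L-KO was above all 12 others, which overlapped, and the interaction was -2.18 (standard error 0.25, adjusted p = 0.00042). The other called members, chosen after their values were seen, were *Akr1c13* at -0.95 (adjusted p = 0.0197), *Akr1c19* at -0.91 (adjusted p = 0.0344) and *Ugdh* at -0.98 (adjusted p = 0.0468). *Ugdh*, which makes UDP-glucuronic acid, kept part of its rise, with a *Gclc* effect of 2.07 with *Nrf2* intact and 1.09 with *Nrf2* targeted.

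Peroxide and thioredoxin enzymes held fewer called genes, each of them negative. *Srxn1*, sulfiredoxin, which restores overoxidised peroxiredoxins, stood at 10.62, 10.84, 11.06 and 11.10 in WT, 13.49, 14.69, 16.06 and 16.44 in Gclc L-KO, 10.48, 10.63, 10.41 and 10.62 in Nrf2 L-KO and 11.42, 11.14, 11.58 and 11.38 in L-DKO. Gclc L-KO replicates 3 and 4 were above replicates 1 and 2, and L-DKO lay above all WT and Nrf2 L-KO libraries. Its interaction was -3.42 (standard error 0.62, adjusted p = 0.0235), and the call ended without WT 1, WT 3, WT 4, Gclc L-KO 3 or Nrf2 L-KO 2, with adjusted p up to 0.0609. *Txnrd1*, the cytosolic thioredoxin reductase, stood at 11.89, 12.09, 12.24 and 12.26 in WT, 13.38, 13.74, 14.17 and 14.37 in Gclc L-KO, 11.73, 11.80, 11.80 and 11.87 in Nrf2 L-KO and 12.30, 12.26, 12.60 and 12.39 in L-DKO. Nrf2 L-KO was the lowest and Gclc L-KO the highest group, and the interaction was -1.21 (standard error 0.23, adjusted p = 0.0328). These were the 2 calls among 14 thioredoxin and peroxiredoxin genes, whose median was -0.07. *Gpx2*, a glutathione peroxidase best known from gut epithelium, stood at 2.89, 3.08, 3.42 and 2.90 in WT, 4.86, 6.75, 7.45 and 8.56 in Gclc L-KO, 3.38, 2.84, 3.11 and 2.99 in Nrf2 L-KO and 3.26, 2.77, 2.64 and 2.77 in L-DKO. Its Gclc L-KO libraries spread over more than 3 log2 units, and all were above the rest. The interaction of *Gpx2* was -4.05 (standard error 0.73, adjusted p = 0.0222), the 1 call among 9 peroxidases, dismutases and catalase, and it was lost without WT 1, WT 4, Gclc L-KO 3 or L-DKO 3, with adjusted p up to 0.0632.

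Among 13 genes of glutathione synthesis and recycling, 3 had a negative interaction and the median was -0.36. *Gclm*, the modifier subunit that partners GCLC, stood at 12.81, 12.82, 12.85 and 12.76 in WT, 13.66, 13.92, 14.15 and 14.24 in Gclc L-KO, 12.66, 12.66, 12.79 and 12.76 in Nrf2 L-KO and 13.08, 13.12, 12.99 and 12.97 in L-DKO. Gclc L-KO was the highest group, and L-DKO lay above all WT and Nrf2 L-KO libraries. Its interaction was -0.86 (standard error 0.14, adjusted p = 0.0122). *Gsr*, which reduces oxidised glutathione, stood at 10.91, 11.03, 11.21 and 11.12 in WT, 12.19, 12.50, 13.00 and 13.13 in Gclc L-KO, 10.86, 10.88, 11.01 and 11.12 in Nrf2 L-KO and 11.45, 11.43, 11.59 and 11.49 in L-DKO. It had the same order of groups as *Gclm*, and the interaction was -1.11 (standard error 0.22, adjusted p = 0.0344). *Gclc* was the third, described with the genes whose effect was larger without *Nrf2*. *Slc7a11*, the cystine carrier, was chosen after its values were seen: it stood at 3.40, 3.24, 3.18 and 2.95 in WT, 3.20, 4.72, 8.64 and 10.35 in Gclc L-KO, 3.25, 4.11, 4.39 and 3.57 in Nrf2 L-KO and 3.67, 3.23, 3.55 and 3.25 in L-DKO. Only Gclc L-KO replicates 3 and 4 were clearly high, and its interaction of -3.94 (standard error 1.53, adjusted p = 0.257) did not pass.

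Exporters and glucuronosyltransferases, which handle conjugates, added 5 negative genes. *Abcc4*, an exporter at the sinusoidal membrane, stood at 7.44, 8.16, 7.61 and 8.26 in WT, 11.66, 12.02, 12.49 and 12.41 in Gclc L-KO, 7.59, 7.60, 7.14 and 7.39 in Nrf2 L-KO and 8.57, 8.88, 7.56 and 7.46 in L-DKO. Gclc L-KO was above 11 and the others under 9, and the interaction was -3.59 (standard error 0.42, adjusted p = 0.000583). *Abcc2*, the exporter of conjugates into bile, stood at 14.76, 14.90, 14.69 and 14.87 in WT, 15.56, 15.57, 16.29 and 16.18 in Gclc L-KO, 14.57, 14.52, 14.68 and 14.54 in Nrf2 L-KO and 14.47, 14.76, 14.58 and 14.58 in L-DKO. Gclc L-KO was above the rest, which overlapped, and the interaction was -1.07 (standard error 0.21, adjusted p = 0.0344). They were 2 of 14 exporters tested (median -0.34). *Ugt2b5* stood at 14.40, 14.29, 14.60 and 14.59 in WT, 15.69, 15.87, 15.72 and 15.57 in Gclc L-KO, 13.46, 13.48, 13.56 and 13.45 in Nrf2 L-KO and 13.48, 13.52, 13.38 and 13.66 in L-DKO. Both Nrf2 L-KO and L-DKO were below WT with little spread, and the interaction was -1.22 (standard error 0.13, adjusted p = 0.000297). *Ugt2b35* and *Ugt2b34* had interactions of -1.52 (adjusted p = 0.0141) and -0.69 (adjusted p = 0.0493), which makes 3 of 19 glucuronosyl- and sulfotransferases (median -0.09). The *Ugt2b* genes among them include similar copies.

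Iron and haem handling held 3 negative genes of 13, with a median of -0.62. *Slc40a1*, ferroportin, the only known cellular iron exporter of mammals, stood at 12.50, 12.51, 12.02 and 11.80 in WT, 13.54, 13.82, 13.36 and 13.37 in Gclc L-KO, 12.29, 12.51, 12.27 and 12.22 in Nrf2 L-KO and 12.38, 12.40, 12.19 and 11.91 in L-DKO. All other groups overlapped, and the interaction was -1.42 (standard error 0.23, adjusted p = 0.0101). *Slc48a1*, a haem transporter of the endolysosome, stood at 10.50, 10.70, 10.60 and 10.68 in WT, 12.08, 12.49, 12.62 and 12.94 in Gclc L-KO, 10.43, 10.62, 10.49 and 10.47 in Nrf2 L-KO and 11.03, 10.97, 11.20 and 11.11 in L-DKO. L-DKO lay between Gclc L-KO and the other groups without overlap, and the interaction was -1.34 (standard error 0.18, adjusted p = 0.00265). *Fth1*, the heavy chain of ferritin, had an interaction of -1.06 (standard error 0.22, adjusted p = 0.0433). *Hmox1*, which breaks down haem, had a value of -1.90 (standard error 0.44, adjusted p = 0.07) and did not pass. In NADPH supply *Tkt*, transketolase, was the 1 negative call of 10, at -0.52 (standard error 0.10, adjusted p = 0.0328). *G6pdx*, the entry enzyme of the pentose phosphate path, had a larger value of -2.59 (standard error 0.65, adjusted p = 0.0915) and did not pass: its Gclc L-KO libraries ran from 9.19 to 12.33. The macrophage marker sum was also higher in Gclc L-KO, at 13.62 to 14.10 against 12.82 to 13.27 in WT. With the marker mean as a covariate *Slc48a1* kept its call, at -1.18. *Slc40a1*, *Fth1* and *Tkt* lost theirs, with interactions of -1.32, -0.94 and -0.57 and adjusted p of 0.0704, 0.177 and 0.0704.

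Negative genes outside these lists, chosen after their values were seen unless the 12 largest held them, have other known roles. *Ppfibp2*, a liprin, stood at 10.11, 10.18, 10.17 and 10.22 in WT, 11.27, 11.43, 11.44 and 11.49 in Gclc L-KO, 9.92, 9.97, 9.84 and 9.82 in Nrf2 L-KO and 10.04, 10.04, 9.87 and 10.01 in L-DKO. Every group had little spread, and the interaction was -1.14 (standard error 0.09, adjusted p = 1.12e-05). *Entpd5*, a nucleoside diphosphatase of the endoplasmic reticulum, had an interaction of -1.12 (adjusted p = 0.00427), and *Slc28a1*, a sodium-linked nucleoside carrier, one of -1.80 (adjusted p = 0.00265). *Gbe1*, the glycogen branching enzyme, stood at 11.31, 11.86, 11.77 and 11.83 in WT, 12.83, 12.96, 12.93 and 12.76 in Gclc L-KO, 11.33, 11.30, 11.72 and 11.42 in Nrf2 L-KO and 11.20, 11.43, 10.85 and 10.74 in L-DKO. Gclc L-KO was above the rest and L-DKO replicates 3 and 4 were the lowest, with an interaction of -1.56 (standard error 0.22, adjusted p = 0.00265). *Prkaa2*, a catalytic subunit of AMP-activated kinase, had a value of -0.91 (adjusted p = 0.0133), *Mthfd1l*, a mitochondrial folate enzyme, -1.78 (adjusted p = 0.0346), and *Pir*, an iron-binding nuclear protein, -0.68 (adjusted p = 0.00913). The peroxisome genes *Pex3* and *Slc25a17* had -0.37 (adjusted p = 0.0434) and -0.73 (adjusted p = 0.0217). *Ly6d*, a surface protein of the LY6 family, had an interaction of -2.90 (standard error 0.61, adjusted p = 0.0459) and was called in 1 of the 16 fits that left out a library, the one without Gclc L-KO 1.

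**Figure D2:**
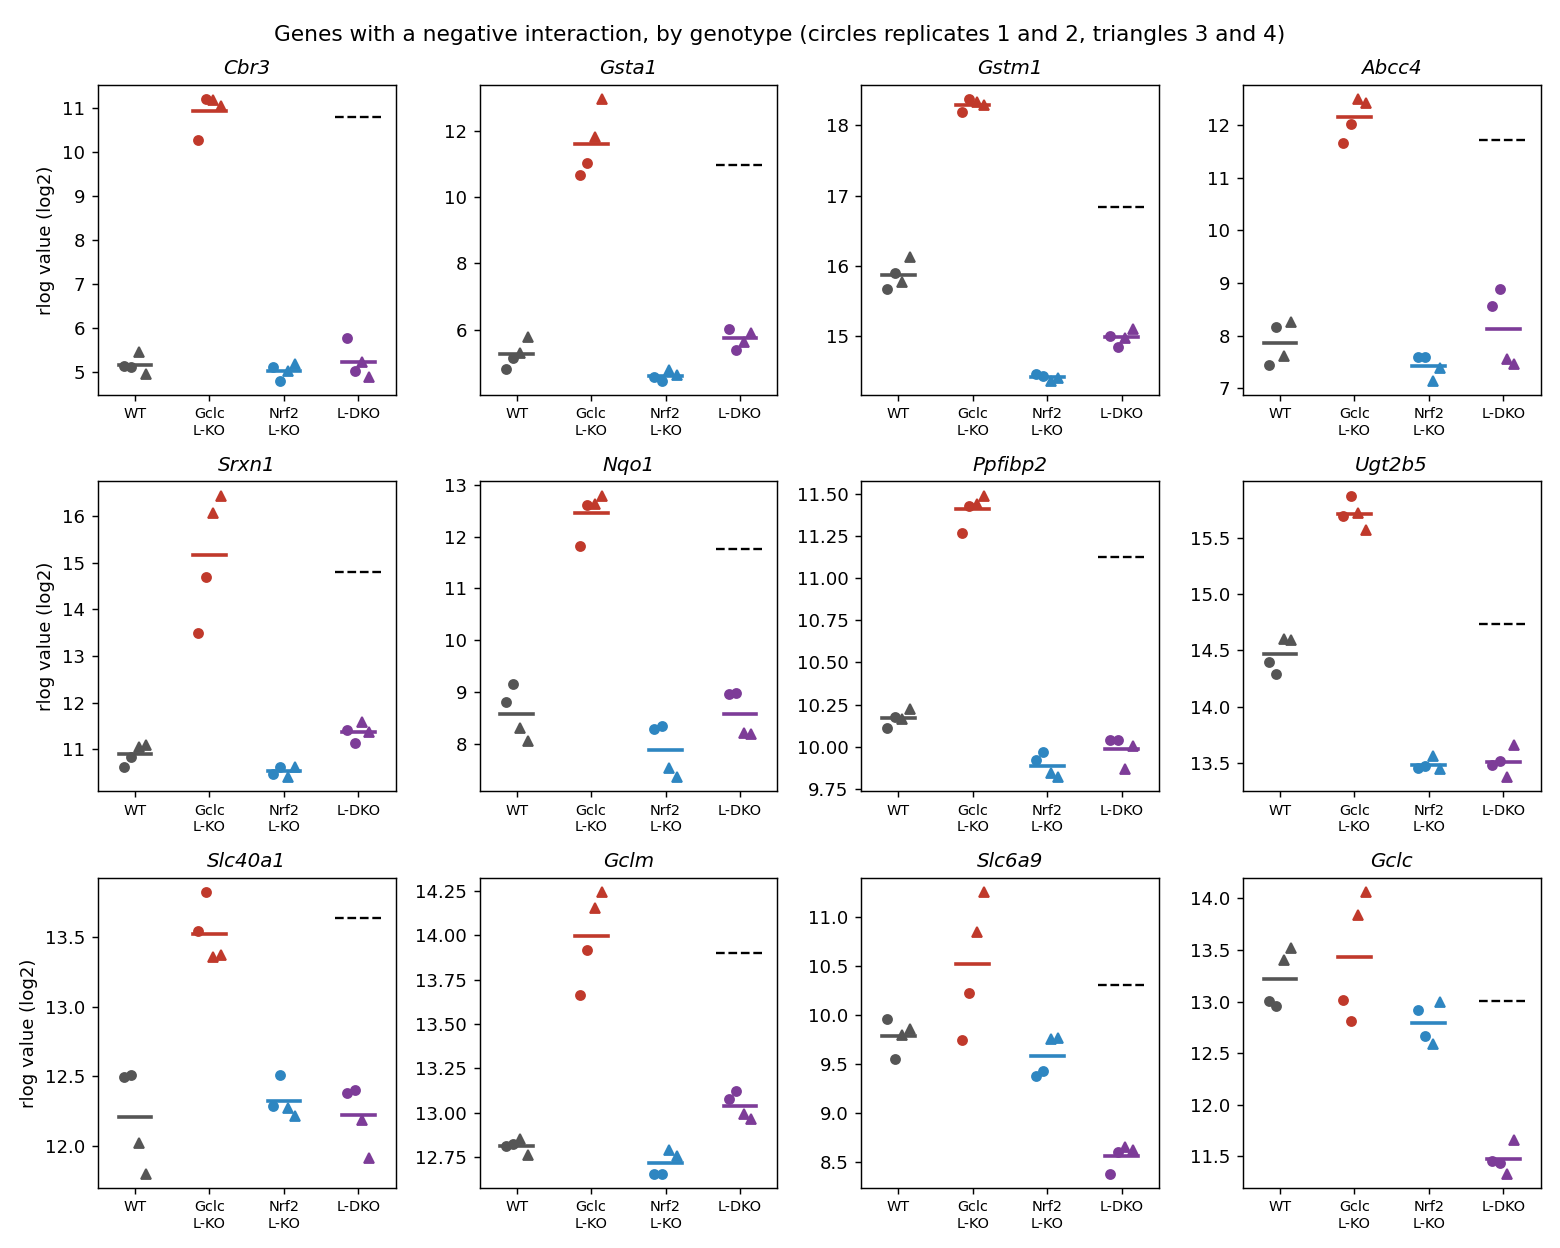
Rlog values (log2, vertical axis) of 12 genes with a negative interaction in the 4 genotypes. Each point is 1 mouse, bars are group means, and the dashed line over L-DKO is the mean expected if effects added up; the L-DKO points lie below it in all 12 panels, by 0.86 for *Gclm* and 5.56 for *Cbr3*.

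In 4 negative genes the change after *Gclc* deletion was larger where *Nrf2* was targeted. *Slc6a9*, the glycine transporter GLYT1, stood at 9.96, 9.56, 9.80 and 9.86 in WT, 9.75, 10.23, 10.85 and 11.26 in Gclc L-KO, 9.38, 9.43, 9.75 and 9.77 in Nrf2 L-KO and 8.38, 8.60, 8.65 and 8.62 in L-DKO. L-DKO was below all other libraries, while Gclc L-KO replicate 1 lay within WT and the other 3 above it. The *Gclc* effect was 0.73 with *Nrf2* intact and -1.02 with *Nrf2* targeted, and the interaction was -1.75 (standard error 0.33, adjusted p = 0.0307). *Gclc* itself had effects of 0.21 and -1.32, with an interaction of -1.54 (standard error 0.33, adjusted p = 0.0468). Its call held in 2 of 16 fits that left out a library, those without Gclc L-KO 1 or Gclc L-KO 2, with adjusted p up to 0.12 in the others. *Cyfip2*, of the WAVE actin complex, stood at 6.69, 6.81, 6.43 and 6.62 in WT, 6.86, 6.86, 6.80 and 6.78 in Gclc L-KO, 7.74, 7.55, 7.34 and 7.27 in Nrf2 L-KO and 7.06, 6.84, 6.91 and 6.88 in L-DKO. Here Nrf2 L-KO was above all other libraries, and L-DKO lay between it and WT, with an interaction of -0.74 (standard error 0.16, adjusted p = 0.046). The predicted gene *Gm34934* was the fourth, at -0.93 (adjusted p = 0.0344).

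Among called genes the largest positive interaction was that of a carrier that takes organic anions into hepatocytes. *Slco1a1* stood at 12.58, 12.21, 13.71 and 13.68 in WT, 9.14, 8.42, 8.56 and 8.08 in Gclc L-KO, 12.77, 12.78, 13.95 and 13.31 in Nrf2 L-KO and 11.37, 10.75, 11.90 and 11.32 in L-DKO. L-DKO lay between Gclc L-KO and the other groups, with no overlap on either side. Its interaction was 2.63 (standard error 0.52, adjusted p = 0.0344), with *Gclc* effects of -4.49 with *Nrf2* intact and -1.86 with *Nrf2* targeted. It was the 1 call among 8 uptake carriers, 7 of which had values above 0 (7557 of the 15128 tested genes did) with a median of 0.95. *Mup3*, a major urinary protein under growth hormone control in mouse liver, stood at 16.67, 16.27, 17.41 and 17.51 in WT, 13.78, 12.95, 13.55 and 13.09 in Gclc L-KO, 16.17, 16.13, 17.42 and 16.70 in Nrf2 L-KO and 15.01, 15.12, 15.66 and 15.84 in L-DKO. It had the same order of groups and an interaction of 2.43 (standard error 0.47, adjusted p = 0.0328), the 1 call among 15 genes of the growth hormone axis (median 0.39). Major urinary protein genes are near-identical copies. Hepatocyte markers moved the same way without a call: 5 of 6 had values above 0, with a median of 0.66, and their sum was lower in every Gclc L-KO library than in any other group except L-DKO, whose lowest library was at 21.03. The part of hepatocyte content in the positive genes was not tested.

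Lipid synthesis was represented by *Scd1*, which makes monounsaturated fatty acids. *Scd1* stood at 16.84, 17.47, 17.56 and 17.94 in WT, 14.93, 14.34, 14.16 and 14.14 in Gclc L-KO, 17.32, 16.84, 17.87 and 18.06 in Nrf2 L-KO and 16.64, 16.74, 16.36 and 16.16 in L-DKO. L-DKO was above all Gclc L-KO libraries and below all others. Its interaction was 2.01 (standard error 0.41, adjusted p = 0.0392), and L-DKO had a mean of 16.48 against 14.46 expected from additive effects. Of 18 fatty acid synthesis genes it was the 1 call, while 17 had values above 0, 7 of them at an unadjusted p under 0.05, and the median was 0.43. *Fasn*, fatty acid synthase, had a value of 0.64 (standard error 0.37, adjusted p = 0.442) and *Fabp1*, the liver fatty acid binding protein, 1.61 (standard error 0.48, adjusted p = 0.161), and neither passed. All 11 lipid genes with qPCR primers had values above 0, with a median of 0.64. These genes are no independent sample, since they were picked for work on lipid synthesis in these livers. *Acsl3*, an acyl-CoA synthetase of lipid droplets, and *Them4*, a thioesterase, were called outside the lists, chosen after their values were seen, at 0.95 (adjusted p = 0.0217) and 0.88 (adjusted p = 0.0413).

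*Avpr1a*, the hepatic vasopressin receptor, stood at 10.08, 9.84, 10.29 and 10.18 in WT, 8.80, 8.14, 7.71 and 7.54 in Gclc L-KO, 10.92, 10.55, 9.56 and 9.83 in Nrf2 L-KO and 10.65, 10.07, 9.91 and 9.89 in L-DKO. Gclc L-KO was below every other library, and the interaction was 1.96 (standard error 0.42, adjusted p = 0.0498). *Errfi1*, a feedback inhibitor of the EGF receptor, stood at 14.47, 14.62, 14.75 and 14.64 in WT, 12.45, 13.67, 11.87 and 12.56 in Gclc L-KO, 14.17, 14.16, 14.50 and 13.82 in Nrf2 L-KO and 14.53, 13.96, 14.36 and 13.69 in L-DKO. Gclc L-KO replicate 2, at 13.67, was near the lowest L-DKO library at 13.69. The interaction of *Errfi1* was 1.96 (standard error 0.41, adjusted p = 0.0434). *Plxnb1*, a semaphorin receptor, stood at 11.26, 11.29, 11.49 and 11.39 in WT, 10.33, 9.87, 10.03 and 9.78 in Gclc L-KO, 11.29, 11.25, 11.45 and 11.66 in Nrf2 L-KO and 11.40, 11.03, 10.91 and 10.91 in L-DKO. Gclc L-KO was below the rest, and L-DKO replicates 2, 3 and 4 lay between it and WT. The value of *Plxnb1* was 1.01 (standard error 0.19, adjusted p = 0.0258). Smaller positive values, chosen after they were seen, were those of *Flt3l*, a haematopoietic growth factor, at 0.85 (adjusted p = 0.0361), *Il11ra1*, an interleukin receptor chain, at 0.67 (adjusted p = 0.0493), and *Zfpm1*, a cofactor of GATA factors, at 0.86 (adjusted p = 0.0328).

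*Bcl7c*, a subunit of SWI/SNF complexes, stood at 8.05, 7.84, 7.93 and 7.93 in WT, 7.54, 7.51, 7.21 and 7.30 in Gclc L-KO, 8.04, 7.85, 7.81 and 7.71 in Nrf2 L-KO and 8.16, 7.94, 8.30 and 8.77 in L-DKO. Gclc L-KO was below the rest, and the interaction was 0.99 (standard error 0.20, adjusted p = 0.0397). Splicing and RNA-binding genes, chosen after their values were seen, were *U2af1* at 0.59 (adjusted p = 0.0236), *Rbm4b* at 0.51 (adjusted p = 0.046), *Safb* at 0.46 (adjusted p = 0.041) and *Cnot3*, a subunit of the CCR4-NOT deadenylase, at 0.38 (adjusted p = 0.0218). *Catsperd*, known as a sperm ion channel subunit, had an interaction of 0.99 (adjusted p = 0.0236) at low levels, 5.09 to 6.45 over all libraries.

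Clustered histone genes gave 3 of the positive calls, each with L-DKO as the group of highest mean. Replication-dependent histone transcripts mostly end in a stem-loop without a poly(A) tail, and the libraries were made with a stranded mRNA kit. *H4c14* stood at 4.40, 3.97, 4.11 and 4.28 in WT, 4.30, 4.26, 3.86 and 4.13 in Gclc L-KO, 4.42, 4.43, 3.67 and 3.77 in Nrf2 L-KO and 5.25, 5.63, 5.40 and 5.35 in L-DKO. L-DKO was above all 12 other libraries, which overlapped each other. Its interaction was 1.39 (standard error 0.25, adjusted p = 0.0235). *H4c9* stood at 4.97, 4.84, 5.24 and 4.95 in WT, 4.07, 4.26, 4.34 and 4.32 in Gclc L-KO, 5.17, 5.20, 4.85 and 4.78 in Nrf2 L-KO and 5.14, 5.62, 5.76 and 5.75 in L-DKO. Gclc L-KO was the low group, and L-DKO replicate 1 lay among the WT and Nrf2 L-KO values. The interaction of *H4c9* was 1.32 (standard error 0.21, adjusted p = 0.0101), held in all 16 fits that left out a library. *H4c8* stood at 3.74, 3.39, 3.73 and 3.80 in WT, 3.42, 3.62, 3.59 and 3.48 in Gclc L-KO, 3.58, 3.87, 3.66 and 3.503 in Nrf2 L-KO and 4.34, 4.38, 4.82 and 5.03 in L-DKO. All L-DKO libraries were again above the 12 others, and the interaction was 1.13 (standard error 0.22, adjusted p = 0.0317). All 11 clustered histone genes tested, a set chosen after values were seen, had values above 0, with a median of 0.67 and 3 calls. The 3 called genes encode the same protein from similar sequences and lie at low rlog means, so reads may be split between copies.

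Other positive genes also peaked in L-DKO. *Hirip3*, a histone-binding partner of the HIRA chaperone, stood at 7.07, 6.98, 6.99 and 6.96 in WT, 7.02, 6.93, 6.81 and 7.04 in Gclc L-KO, 7.08, 7.08, 6.93 and 7.14 in Nrf2 L-KO and 7.76, 7.40, 7.77 and 7.93 in L-DKO. No other group reached the L-DKO range of 7.40 to 7.93, and the interaction was 0.71 (standard error 0.15, adjusted p = 0.0434). *Adrm1*, a ubiquitin receptor of the proteasome, stood at 10.53, 10.42, 10.52 and 10.50 in WT, 10.75, 10.56, 10.55 and 10.56 in Gclc L-KO, 10.36, 10.48, 10.39 and 10.49 in Nrf2 L-KO and 10.98, 10.91, 11.16 and 11.13 in L-DKO. L-DKO was above all 12 others, with an interaction of 0.50 (standard error 0.09, adjusted p = 0.0267). *Kdelr2*, which returns proteins to the endoplasmic reticulum, had an interaction of 0.55 (standard error 0.10, adjusted p = 0.0296), with *Gclc* effects of -0.26 with *Nrf2* intact and 0.29 with *Nrf2* targeted. *Sftpa1*, a surfactant protein of lung, stood at 5.90, 4.98, 5.52 and 5.62 in WT, 4.94, 5.58, 4.94 and 5.02 in Gclc L-KO, 5.11, 5.25, 5.32 and 5.20 in Nrf2 L-KO and 5.96, 5.97, 6.29 and 6.77 in L-DKO. L-DKO replicates 1 and 2 were only just above WT replicate 1, and the interaction was 1.42 (standard error 0.30, adjusted p = 0.0461). The predicted gene *Gm32358* was another such gene, at 0.93 (adjusted p = 0.0346).

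**Figure D3:**
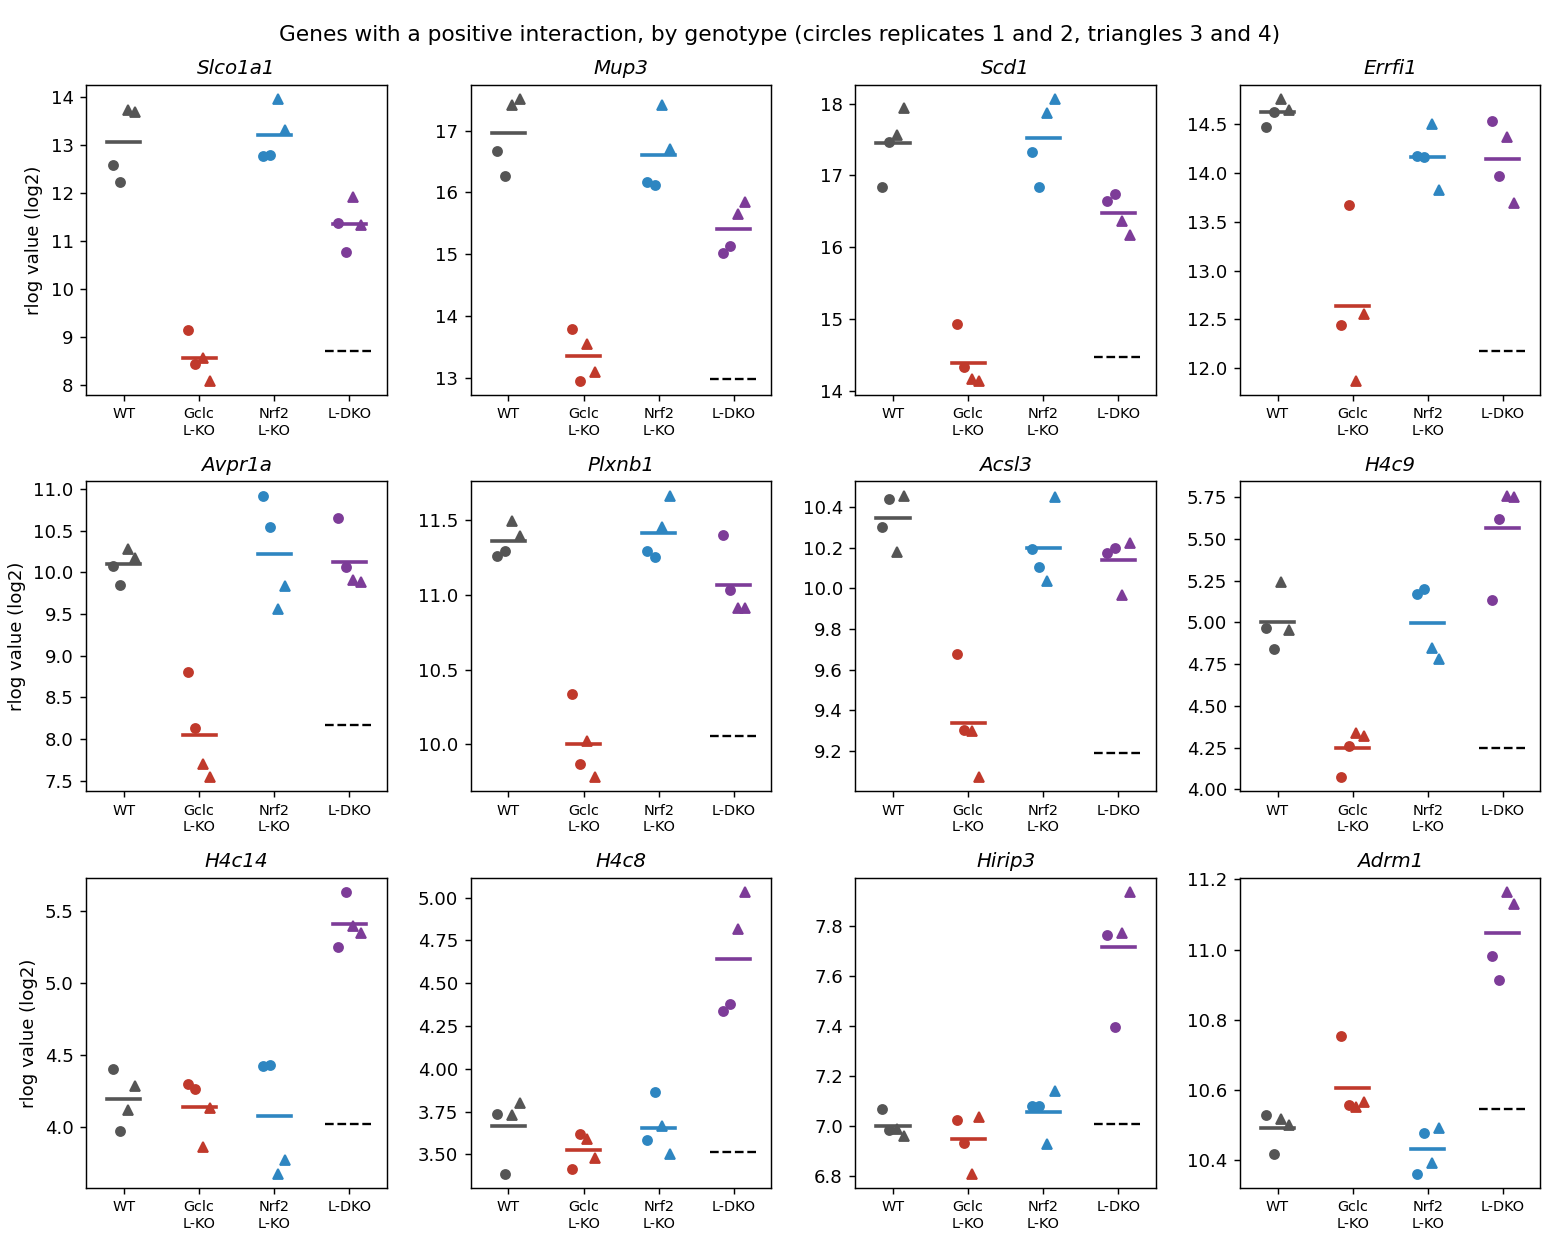
Rlog values (log2, vertical axis) of 12 genes with a positive interaction in the 4 genotypes. Each point is 1 mouse, bars are group means, and the dashed line over L-DKO is the mean expected if effects added up; the L-DKO mean is above it in all 12 panels, by 2.63 for *Slco1a1* and 0.50 for *Adrm1*.

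Gene lists without a call are described by their medians. Of all 15128 tested genes, 1127 were above 0 and 1112 below 0 at an unadjusted p under 0.05. All 15 interferon response genes had values below 0, with a median of -0.65 and 4 at an unadjusted p under 0.05. The 8 Kupffer cell and macrophage markers were also all below 0, with a median of -0.61, 3 of them at an unadjusted p under 0.05. All 6 markers of recruited monocytes (median -0.54) and all 6 of T and NK cells (median -0.51) were below 0 too. The macrophage sum moved with both: all Gclc L-KO libraries were above all WT libraries, and Nrf2 L-KO replicate 2 was the highest of all at 14.16. Of 28 proteasome genes 22 were above 0, with a median of 0.13, and 10 were at an unadjusted p under 0.05. Of 23 cholesterol genes 18 were above 0 (median 0.35), and of 24 cytochrome P450 genes 13 (median 0.08). The 10 genes of NRF2 and its partners, *Keap1* and *Nfe2l2* among them, had a median of -0.03, with *Nfe2l2* itself at 0.39 (standard error 0.29, adjusted p = 0.565). Endothelial cell markers had a median of -0.33, with all 6 below 0, and activated stellate cell markers one of -0.31. The remaining pathway lists without a call had medians from -0.22, in collagens and matrix, to 0.51, in gluconeogenesis and glucose handling.

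**Figure D4:**
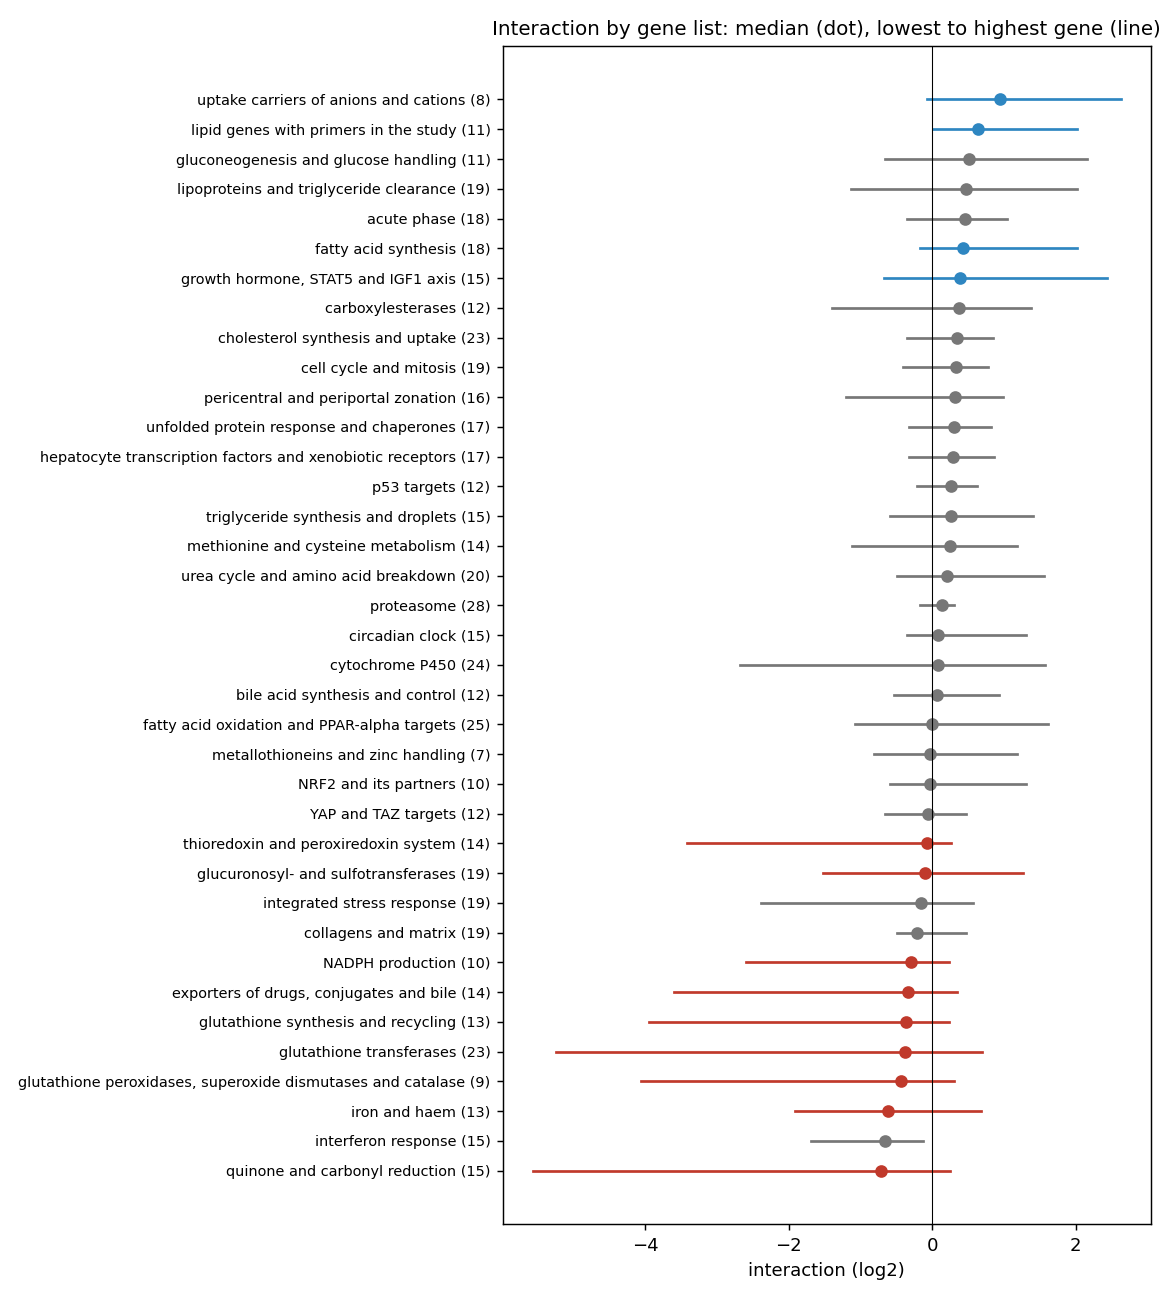
Interaction on the log2 scale (horizontal axis) in each gene list; the number of tested genes is in brackets, dots are medians and lines run from the lowest to the highest gene. Lists with negative calls are red and lists with positive calls are blue; quinone and carbonyl reduction has the lowest median, -0.71, and uptake carriers the highest, 0.95.

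Negative calls depended less on single libraries than positive ones did. Of the 70 negative genes 29 were called in each of the 16 fits that left out 1 library, and 31 in fewer than 8. Of the 34 positive genes *H4c9* and *BC024978* were called in all 16 and 25 in fewer than 8. The number of positive calls ran from 2 without Gclc L-KO replicate 3 to 104 without Gclc L-KO replicate 1, and that of negative calls from 29 to 153 without the same libraries. For the 41 called genes named by the rule, adjusted p reached at most 0.131 and no value changed sign. Leaving out Gclc L-KO replicate 1 ended none of these 41 calls, and leaving out any other single library ended between 9, without L-DKO replicate 2, and 27, without Gclc L-KO replicate 3. *Slco1a1*, *Mup3*, *Scd1*, *Errfi1* and *Avpr1a*, the largest positive values among called genes, were called in 4, 5, 3, 3 and 2 of the 16 fits. Among the negative genes *Abcc2*, *Gsr*, *Txnrd1*, *Fth1* and *Tkt* were called in 4, 3, 5, 1 and 6. With the mean of the macrophage markers as a covariate, the negative genes that kept their call included *Cbr3*, *Gsta1*, *Gstm1*, *Abcc4*, *Nqo1*, *Ugt2b5*, *Pir* and *Ppfibp2*, and the positive one was *H4c9*. Of the 41 named calls 14 positive and 17 negative ones were lost, at adjusted p of 0.0577 to 0.196. The negative ones were *Abcc2*, *Cyfip2*, *Fth1*, *Gclc*, *Gclm*, *Gpx2*, *Gsr*, *Gstm3*, *Gstp2*, *Ly6d*, *Slc40a1*, *Slc6a9*, *Srxn1*, *Tkt*, *Txnrd1*, *Ugt2b34* and *Ugt2b35*, and the positive ones were all named positive calls other than *H4c9*. No value changed sign. Some lost calls had smaller values with the covariate, such as *Srxn1* at -2.95, *Scd1* at 1.67 and *Mup3* at 1.93. Others had larger ones, such as *Tkt* at -0.57, *Avpr1a* at 2.18, *Errfi1* at 2.11 and *H4c14* at 1.51. The macrophage sum was higher in all Gclc L-KO libraries than in any WT library, so the covariate also follows genotype. A lost call therefore does not show what part macrophages have.

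**Figure D5:**
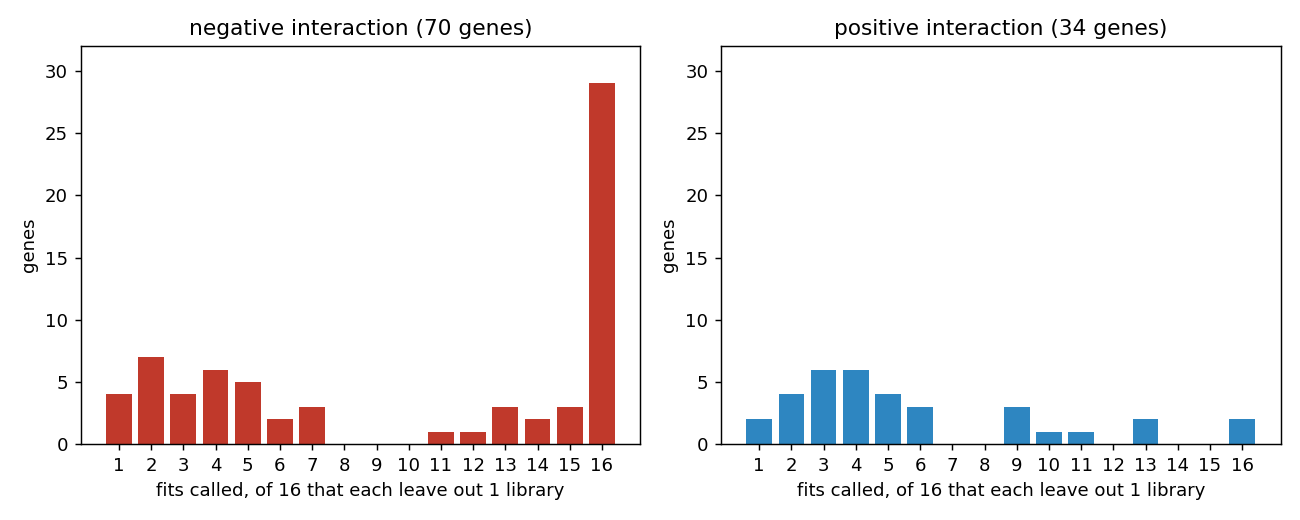
Number of genes (vertical axis) by how many of the 16 fits that each left out 1 library still called them (horizontal axis), for negative (left, 70 genes) and positive interactions (right, 34 genes). The bar at 16 holds 29 negative and 2 positive genes.

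The interaction was also compared between replicates 1 and 2 and replicates 3 and 4, which differ in *Xist* and *Ddx3y*. None of the 104 genes differed past the threshold, although sizes were larger in replicates 3 and 4 for 53 of 70 negative and 27 of 34 positive genes. For negative genes the median was -1.04 within the first pair and -1.29 within the second, and for positive genes 0.77 and 1.04. Over all tested genes the difference was called in *Mup21* and *Elovl3*, both outside the 104. *Mup21*, a major urinary protein gene, stood at 8.47, 8.41, 12.68 and 12.49 in WT, 7.61, 6.76, 6.54 and 6.23 in Gclc L-KO, 8.54, 8.30, 12.08 and 11.62 in Nrf2 L-KO and 8.22, 8.26, 10.68 and 10.79 in L-DKO. *Elovl3*, a fatty acid elongase, stood at 7.46, 6.77, 12.51 and 12.86 in WT, 6.50, 6.05, 6.97 and 6.84 in Gclc L-KO, 7.63, 7.31, 11.08 and 11.22 in Nrf2 L-KO and 6.22, 6.71, 9.26 and 9.90 in L-DKO. In WT and Nrf2 L-KO replicates 3 and 4 were high for both genes, whereas in Gclc L-KO all 4 libraries were low. The interaction was 1.07 and 5.09 in the respective pairs for *Mup21* and -0.17 and 4.21 for *Elovl3*, with adjusted p of 0.0311 and 0.0357 for the difference in limma. Both calls were lost without WT replicate 2 or 4, Gclc L-KO replicate 4, Nrf2 L-KO replicate 1 or 4 or L-DKO replicate 4, and 1 of them without WT replicate 1 or Gclc L-KO replicate 1.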

How the data were processed

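Liver RNA of 16 mice was sequenced from libraries made with a stranded mRNA kit, and the strand setting used for counting is not given in the sources used here. Per the submitters' processing notes the tools were bcl2fastq (2.20.0), fastp, STAR (2.7.9a), featureCounts of Subread (2.0.1), DESeq2 (1.34.0) and R (3.5.1), with the GRCm39 build. The authors deposited 1 table of rlog values, which are log2 counts after library scaling and shrinkage in DESeq2. Raw counts and depths are not analysed here, so no counting error is given. Of 56832 genes 26656 were at 0 in every library.

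Genes with a mean rlog of at least 3 were fitted in limma (3.58.1, R 4.3.3) with 1 mean per genotype and an empirical Bayes trend. The interaction contrast was tested over all 15128 genes, with Benjamini-Hochberg adjustment and a threshold of 0.05. The scripts were tested on simulated data. Genes were named where they were targeted (*Gclc*, *Nfe2l2*), were among the 12 largest calls of each sign, were among the 6 largest each way with a larger effect without *Nrf2*, led a gene list (up to 3 called members, otherwise the first 2 measured), had primers in the study, or were among up to 8 called for a difference between replicates 1 and 2 and replicates 3 and 4. Predicted genes were counted and not described. Other genes were chosen after their values were seen. The members and lists were chosen with earlier results of these data known. Alternatives were other minimum values, no trend, robust fitting, other scalings, array weights, a replicate block, *Xist* or macrophage markers as a covariate, replicate pairs apart, a linear scale, a size of at least 1 and each library left out. Motifs were searched in RefSeq promoters (GRCm38.p6) by gene symbol, and figures were drawn in Python (3.11.15) with matplotlib (3.10.9).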

Additional observations from a re-analysis of the deposited data

Results flagged for a closer look

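Of 484 groups of 4 libraries examined, 1 for each of 121 named genes and each genotype, 23 held a library far from the 3 others by Dixon's test, and chance alone gives about 1 in 20. In WT replicate 4 *Atf4* at 11.72 and *Nfe2l1* at 11.99 were high, and in WT replicate 1 *Pecam1* was low at 8.47. Gclc L-KO replicate 1 was high for *Aacs* at 10.81, *Adrm1* at 10.75 and *Kdelr2* at 11.09. The same library was low for *Apoa1* at 15.50, *Cbr3* at 10.27, *Npas2* at 5.14, *Rps9* at 12.27 and *Top2a* at 6.91. *Sftpa1* was high in Gclc L-KO replicate 2 at 5.58. Among Nrf2 L-KO libraries, replicate 1 was low for *Gnmt* at 14.63 and *Lrat* at 8.99. Replicate 2 of that genotype was low for *Acsl5* at 13.69 and high for *Gstm4* at 10.55, and replicate 3 was low for *Agpat2* at 11.78 and *Top2a* at 6.37 and high for *Fasn* at 14.76. Among L-DKO libraries *Cbr1* was high in replicate 4 at 11.30, where *Clec4f* was low at 11.37. *Cyp1a1* was high at 6.21 in replicate 3 and *Fabp1* at 16.54 in replicate 2. The interaction was larger in replicates 3 and 4 than in replicates 1 and 2, by a limma test of that difference, by 4.01 for *Mup21* and 4.38 for *Elovl3* on the log2 scale.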

How the results depend on the processing

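The 34 positive and 70 negative calls moved with several choices, and the cause was not tested. Positive calls numbered 12 with no minimum level, 19 on a linear scale (fitted without trend), 117 with array weights and 80 with *Xist* as a covariate. In replicates 1 and 2 only they numbered 2, of which 0 were among the 34. In replicates 3 and 4 only they numbered 207, of which 25 were among the 34. There were 2 with macrophage markers as a covariate, which was added after seeing the data, and 14 at a size of at least 1. Negative calls numbered 148 with array weights, 138 with *Xist*, 79 on a linear scale, 24 with macrophage markers and 41 at a size of at least 1. In replicates 1 and 2 they numbered 10, of which 9 were among the 70. In replicates 3 and 4 they numbered 281, of which 55 were among the 70. All 104 genes were among the calls with *Xist*. On a linear scale 14 of the 34 positive and 50 of the 70 negative genes kept their call, with *Cbr3*, *Abcc4* and *Nqo1* among them. *Gm3776*, *Gsta1*, *Gpx2*, *Gstp2*, *Srxn1*, *Slco1a1*, *Mup3*, *Scd1* and *Avpr1a* lost it there. Leaving out 1 library gave 2 to 104 positive calls, 29 to 153 negative calls and, for the difference between replicate pairs (2 genes; leaving out added after seeing the data), 0 to 11 genes. That difference was called in 0 genes without the trend, against 1107 at an unadjusted p under 0.05 in the trended limma fit, and in 1 gene with quantile normalization. With a replicate block there were 43 positive and 81 negative calls, 24 and 62 of them shared with the fit without it. Among the named genes the block ended the calls of *Scd1*, *Errfi1*, *Bcl7c*, *Sftpa1* and *Tkt*, at adjusted p of 0.0527 to 0.0655. Same-numbered libraries did correlate, with a mean r of 0.28, close to the 0.25 between replicates 1 and 2 or replicates 3 and 4 of different genotypes, and apart from -0.27 for other pairs. Since 4 of 24 same-numbered pairs were not over 0.1, 10 of 16 libraries correlated best with their own number and the labels tie a number to no litter, batch or day, the block was kept as an alternative. Over the 121 named genes no call changed direction, and among all values under the alternatives 418 lost a call, 13 gained one and 3062 stayed on the same side. The depth of the libraries is not known from rlog values, and the 8 positive and 12 negative genes with a mean under 6 are pulled most towards their mean.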
